A study of Mus musculus with 8 samples.

Results

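The circular RNAs (circRNAs) described here are those whose host gene builds the primary cilium, the centrosome or the motors that walk along microtubules. CircRNAs are closed RNA loops made by back-splicing. Members were chosen by host gene symbol: centrosomal Cep genes with Pcm1, Pcnt, Alms1 and Cspp1, intraflagellar transport (Ift) and Bardet-Biedl (Bbs) genes, the nephronophthisis, Joubert and polycystic kidney genes, and the dynein (Dync, Dnah) and numbered kinesin (Kif) families. It took in 79 of 6315 listed circRNAs, from 36 of 2841 named host genes. The samples were total RNA of kidneys from C57BL/6L mice aged 8 to 10 weeks. The control group had 3 libraries, titled wild type and described in the series as sham-operated. Another 2 libraries came from a group called acute-chronic (AC), and 3 from mice with unilateral ureteral obstruction (UUO), both taken at day 5. The labels do not say whether AC is the ischaemia/reperfusion named in the design text, nor whether each library was 1 animal, so p-values measure the spread between libraries, which may be technical.

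As background, nearly every kidney tubule cell carries a single primary cilium, a sensory antenna that grows from a centriole. Intraflagellar transport trains, pulled outward by kinesin-2 and back by dynein-2, build it, and the BBSome carries membrane proteins in and out. Inherited defects of these parts cause polycystic kidneys, nephronophthisis and the Bardet-Biedl and Joubert syndromes. Centrosomes also organise the microtubules on which kinesins and cytoplasmic dynein carry cargo and separate chromosomes. The tables count circular and not linear RNA, so a lower circRNA need not mean a lower protein.

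Sequences of the loops themselves are not used here. Of the 36 hosts, 29 matched a promoter in the RefSeq table of build GRCm38.p6 (2 of them, Dnahc2 and Dnahc11, by their current symbols). The 250 bases upstream of the start of Kif16b and Kif26b are shown because the results turn mainly on these kinesin genes. Kif16b lies on the minus strand (chr2:142901465-142901714) and Kif26b on the plus strand (chr1:178528875-178529124), both written 5′ to 3′ along the gene. Capitals mark GTTGCC, a core of the X-box bound by RFX factors of ciliogenesis, and the CCAAT box, each searched on both strands.
Kif16b: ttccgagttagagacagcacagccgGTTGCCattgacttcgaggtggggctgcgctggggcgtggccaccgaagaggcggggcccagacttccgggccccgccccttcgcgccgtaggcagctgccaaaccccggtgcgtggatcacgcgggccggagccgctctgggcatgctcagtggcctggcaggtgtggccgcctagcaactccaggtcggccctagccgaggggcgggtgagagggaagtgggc
Kif26b: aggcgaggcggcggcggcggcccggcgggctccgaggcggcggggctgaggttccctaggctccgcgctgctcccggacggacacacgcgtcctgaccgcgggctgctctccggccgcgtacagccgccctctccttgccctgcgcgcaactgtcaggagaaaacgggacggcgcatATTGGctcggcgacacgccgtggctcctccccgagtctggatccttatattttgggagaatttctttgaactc
The Kif16b window held 1 GTTGCC and 0 CCAAT matches, and the Kif26b window 0 GTTGCC and 1 CCAAT match. In the promoter table, with windows of 300 bases (250 before and 50 after the start), GTTGCC was in 11 of 29 member hosts (37.9%) and in 14.1% of 27025 genes. CCAAT was in 16 of 29 (55.2%) and in 41.1% of genes. These were 2 of 12 patterns searched, and they were picked for display after the matches of all 12 had been seen, so the shares are a description of letters with no test. The other patterns gave no even picture: 8 forms of the whole X-box were in 0 to 4 of the 29 hosts, 4 of these forms in none, and in 0.0518% to 1.49% of all genes. The form with the most matches was found in Bbs7, Kif23, Ahi1 and Nphp4, none of which had enough circRNA counts to be tested.

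The libraries held between 40865 and 65145 circRNA counts, deposited as whole numbers without normalization. Values are also given as CPM, counts scaled to a fixed total from those left after a filter on low counts and scaled by TMM factors; 1 count was worth between 18.9 and 29.2 CPM for single circRNAs and between 16.7 and 25.7 CPM for host sums, which have their own filtered totals. In 0 of 9 immune, 8 fibroblast and 7 collecting duct marker genes was a circRNA listed, so the table cannot show these cells. The labelled tissue rests on few circRNA hosts: of 10 proximal tubule markers Lrp2 and Slc4a4 were listed, and of 8 markers of the loop of Henle and distal nephron Klhl3 alone.

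The 79 circRNAs made up a small and similar share of every library. They took 0.988% ± 0.0416 of the counts (mean ± SD) over 3 control libraries, 0.963% ± 0.0326 over 2 AC libraries and 0.882% ± 0.113 over 3 UUO libraries. The lowest single value was 0.765% in UUO replicate 2, and UUO replicate 1, at 0.991%, lay among the controls. Centrosome hosts gave 23 circRNAs of 10 genes and 1341 of the 3873 counts. Intraflagellar transport and BBSome hosts gave 14 of 5 genes and 1212 counts, kinesins 25 of 12 genes and 947 counts, and dyneins 12 of 5 genes and 328 counts. Pkd1, which encodes polycystin-1, had 32 counts in all. Most circRNAs were sparse: 13 of 79 had a count in 1 library alone, 20 had one in all 8, and the median total over 8 libraries was 11, against 14 for all listed circRNAs.

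**Figure D1:**
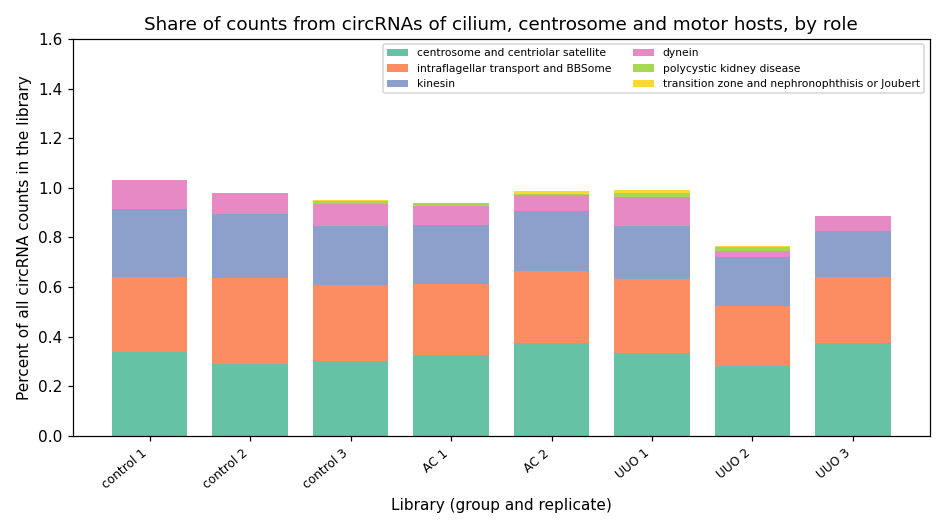
Percent of all circRNA counts in each of the 8 libraries that came from circRNAs of cilium, centrosome and motor hosts, stacked by the role of the host. The stacks reach from 0.765% (UUO replicate 2) to 1.03% (control replicate 1), and centrosome and transport hosts are the 2 widest bands in each library.

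Among kinesins, circRNAs of Kif16b, a motor that moves early endosomes, were lower in UUO than in control. Added over its 5 circRNAs, Kif16b had 95, 87 and 83 counts in control, 52 and 47 in AC, and 39, 53 and 28 in UUO. The 3 UUO libraries all lay below the 3 controls in counts and in CPM, and so did both AC libraries. In CPM of host sums this was 1781 ± 471 (SD, n = 3) in control, 1156 ± 74.9 in the 2 AC libraries and 842 ± 297 (SD, n = 3) in UUO. The host sum was 2.11-fold lower in UUO (log2 fold change -1.08, SE 0.31, edgeR quasi-likelihood adjusted p = 0.0446). It was the only call among 13 tested host sums of this group in UUO against control, where 6.32% of 1203 host sums passed. At an unadjusted p under 0.05 there were 2, Kif16b and Kif26b, beside 18.8% of all. In AC against control the log2 fold change was -0.62 (SE 0.35, adjusted p = 0.419), with 0 of 13 past the threshold (0 at an unadjusted p under 0.05 and 0 in DESeq2 or limma-voom) beside 3.82% of all host sums past the threshold and 15% at an unadjusted p under 0.05. The direct comparison of UUO with AC gave -0.46 (SE 0.36, adjusted p = 0.858), so the models were not shown to differ for Kif16b. No member host sum passed there (0.0831% of all did), and 2 had an unadjusted p under 0.05, Kif1b and Cspp1, beside 6.4% of all.

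The Kif16b call lay close to the threshold. It was lost without control replicate 1 (log2 fold change -0.90, adjusted p = 0.138), control replicate 3 (adjusted p = 0.0699) and UUO replicates 1, 2 or 3 (adjusted p = 0.101, 0.0543 and 0.222). Its log2 fold change ran from -1.33 to -0.82 over the fits with 1 library left out, and 3 of these 8 fits kept the call.

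The single Kif16b loops did not pass on their own, and all 3 tested ones had negative values in both models. The most counted loop, mmu_circ_0009398, had 37, 52 and 36 counts in control, 23 and 16 in AC, and 13, 19 and 16 in UUO. Every control library lay above every other library in CPM, at 744 to 984 against 330 to 542. Its log2 fold change in UUO was -1.28 (SE 0.36), and its adjusted p of 0.0515 just missed the threshold. In AC it was -0.83 (SE 0.40, adjusted p = 0.359). The log2 fold changes of the other 2 tested loops, mmu_circ_0009400 and mmu_circ_0009399, were -0.67 (SE 0.50) and -1.09 (SE 0.87) in UUO, and neither passed (adjusted p = 0.571 and 0.597). UUO replicate 3 had no count of mmu_circ_0009399, and control replicate 1 had 28, more than the other controls with 13 and 8. The remaining loops were too sparse to test. Of these, mmu_circ_0009401 had 8, 4 and 4 counts in control, 7 and 8 in AC, and 0, 4 and 3 in UUO. Its mean CPM was higher in AC (199) than in control (124), with overlapping libraries. The loop mmu_circ_0001078 had 8 counts in AC replicate 1 and 2 in control replicate 2. No source used here says how a read shared by loops of 1 host was counted.

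Some marker circRNAs of tubule cells also differed between the groups, though the marker sums were not tested. The summed CPM of the listed proximal tubule circRNAs was 1622 to 3435 in control, 1313 to 1555 in AC and 1197 to 1649 in UUO, with 8 of the 10 markers at 0, and control replicate 1 lay among the UUO libraries. That of Klhl3 was 1985 to 2699 in control, 353 to 700 in AC and 355 to 677 in UUO. Of 8 injured tubule markers Dcdc2a alone had a listed circRNA. This circRNA moved the other way, at 75.5 to 133 CPM in control and 2285 to 3569 in the other libraries. Listed podocyte circRNAs (Magi2) had 165 to 425 CPM in control, 259 to 379 in AC and 76.1 to 397 in UUO. Listed endothelium circRNAs (Flt1 and Tek) had 94.4 to 133 CPM in control, 0 to 263 in AC and 25.4 to 210 in UUO. Both of these sums overlapped between the groups. The part of cell makeup in the Kif16b result was not tested, and in whole kidney fewer cells of a type cannot be told apart from less RNA per cell.

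**Figure D2:**
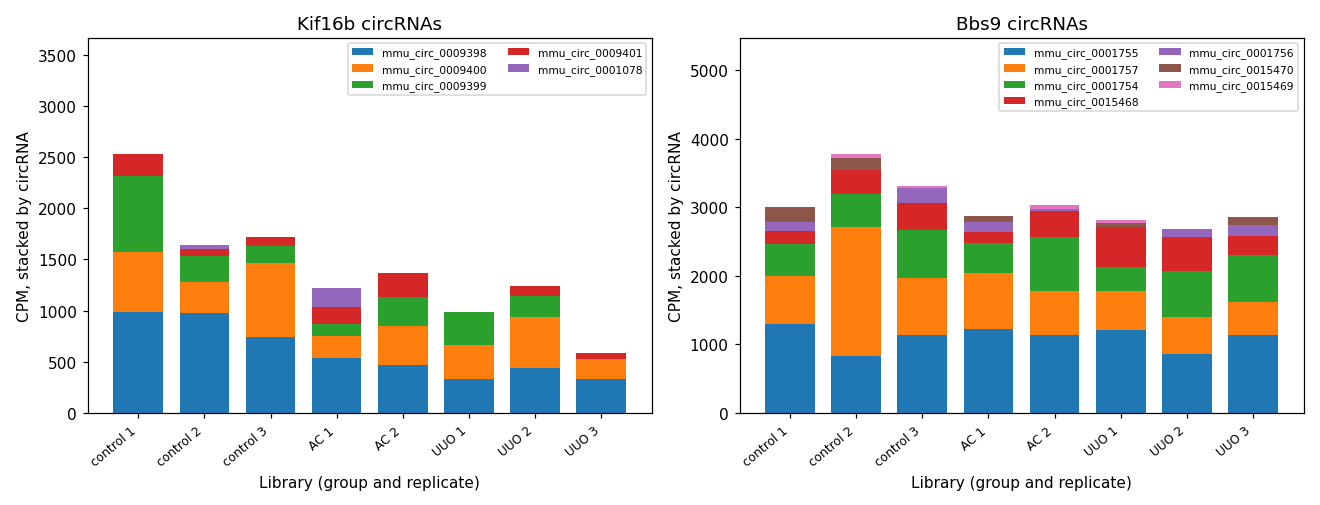
CPM per library of the Kif16b circRNAs (left, 5 loops) and Bbs9 circRNAs (right, 7 loops), stacked by circRNA, with 1 bar for each library. All 3 control stacks of Kif16b stand above the other 5, and the wide mmu_circ_0001757 band of Bbs9 in control replicate 2 is its 100 counts.

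Kif26b, a kinesin that lacks motor activity and acts in cell adhesion during kidney development, had more circRNA counts in UUO without passing the test. Its main circRNA, mmu_circ_0000120, had 0, 8 and 0 counts in control, 5 and 3 in AC, and 18, 15 and 24 in UUO. The UUO libraries, at 350 to 504 CPM, lay above all others, the next highest being control replicate 2 with 151 CPM. The log2 fold change was 2.95 (SE 0.98, unadjusted p = 0.00805, adjusted p = 0.112), and that of the host sum was 2.51 (SE 0.90, adjusted p = 0.113). Control replicate 2 decides this value. Without it both remaining controls were at 0, and the adjusted p was 0.0113. The UUO level was then at least 12.6-fold higher, allowing for counting error of those controls alone (floor of 3 counts over the group). With control replicate 2 kept it was 7.71-fold higher, so the bound does not hold for the whole control group. In AC the log2 fold change of mmu_circ_0000120 was 0.90 (SE 1.16, adjusted p = 0.791), and that of the Kif26b host sum was 1.66 (SE 1.01, adjusted p = 0.458). These AC values also rest on control replicate 2: without it the adjusted p was 0.121 for the loop and 0.0183 for the host sum. The AC level of the host sum was then at least 6.53-fold higher, against 3.17-fold with control replicate 2 kept, so this bound has the same limit. UUO against AC gave 2.05 (SE 1.08, unadjusted p = 0.0761, adjusted p = 0.857). The other Kif26b loop, mmu_circ_0008495, had 10 counts in AC replicate 2, 3 in control replicate 2 and 0 elsewhere.

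Kif1b, a carrier of mitochondria and synaptic vesicle precursors, had its highest counts in AC. Its 6 circRNAs were each too sparse to test. Added, they gave 7, 5 and 9 counts in control, 19 and 13 in AC, and 8, 1 and 1 in UUO. Both AC libraries lay above all controls, and UUO replicates 2 and 3 below them. UUO against AC had a log2 fold change of -2.32 (SE 0.97, unadjusted p = 0.0264), but the adjusted p was 0.742. It ran from -4.06 (without UUO replicate 1) to -1.85 (without UUO replicate 3) for the Kif1b host sum with 1 library left out. Most AC counts came from mmu_circ_0011425, with 17 and 4 in AC.

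Kif3b, a motor subunit of the kinesin-2 that carries cargo towards the cilium tip, had 17, 51 and 32 counts of mmu_circ_0009448 in control, 17 and 14 in AC, and 26, 19 and 27 in UUO. In CPM both AC libraries, at 400 and 408, lay below the lowest control at 452. The log2 fold changes were -0.78 (SE 0.45, adjusted p = 0.490) in AC and -0.33 (SE 0.38, adjusted p = 0.742) in UUO. Its partner Kif3a had a single count in control replicate 1. Kif2a, a microtubule depolymeriser, had 0, 12 and 11 counts in control, 7 and 3 in AC, and 9, 11 and 10 in UUO over its 2 loops, and was not tested. Kif21a, Kif3c and Kif6 each had counts in at most 3 libraries.

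Kinesins of mitosis and cytokinesis were rarely seen. The 5 loops of Kif11, Kif15 and Kif23 together had 0, 3 and 0 counts in control, 12 and 4 in AC, and 0, 0 and 4 in UUO. Kif11 and Kif15 had counts in AC replicate 1 alone. The 8 listed circRNAs of the other dividing cell markers, among them Bub1b and Espl1, had 372 to 496 CPM in control, 1167 to 1414 in AC and 1281 to 1573 in UUO.

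Among intraflagellar transport and BBSome hosts, Bbs9, a BBSome subunit, held 7 circRNAs and 1061 of the counts. The loop mmu_circ_0001757 had 26, 100 and 40 counts in control, 35 and 22 in AC, and 22, 23 and 23 in UUO. The UUO libraries, at 483 to 558 CPM, lay below all controls (691 to 1887 CPM). The log2 fold change was -1.12 (SE 0.39, unadjusted p = 0.0109, adjusted p = 0.131). Control replicate 2 alone carried 100 counts, and without it the log2 fold change was -0.55. In AC the value was -0.64 (SE 0.43, adjusted p = 0.588).

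The UUO values of the other 3 tested Bbs9 loops overlapped with control. The loop mmu_circ_0001755 was the steadiest, with 49, 44 and 55 counts in control, 52 and 39 in AC, and 48, 37 and 54 in UUO, and a log2 fold change of -0.017 (SE 0.30). The loops mmu_circ_0001754 and mmu_circ_0015468 had values of 0.065 (SE 0.40) and 0.50 (SE 0.52). None passed, and the difference between the loops was not tested. The Bbs9 host sum, at 3042 ± 288 CPM (SD, n = 3) in control, 2630 ± 61.6 CPM in the 2 AC libraries and 2497 ± 70.2 CPM (SD, n = 3) in UUO, did not overlap with control in either model. Its log2 fold changes were small, -0.29 (SE 0.20, adjusted p = 0.469) in UUO and -0.21 (SE 0.22, adjusted p = 0.708) in AC.

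Ift81, which binds tubulin in the transport train, had 15, 11 and 8 counts in control, 8 and 11 in AC, and 22, 6 and 15 in UUO over 4 loops. UUO replicate 1 was highest and UUO replicate 2 lowest, so the groups overlapped. Its host sum had log2 fold changes of 0.38 (SE 0.62) in UUO and -0.035 (SE 0.72) in AC, and its tested loop mmu_circ_0012088 had -0.78 (SE 0.98) in UUO. Ift122, of the return transport complex, had 4, 7 and 9 counts in control, 11 and 0 in AC, and 4, 4 and 2 in UUO, and Ift74 and Bbs7 had 7 counts each in all.

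Dynein-2 drives return transport in the cilium, and Dync2h1 is its heavy chain. Its loop mmu_circ_0001742 had 13, 11 and 22 counts in control, 4 and 1 in AC, and 11, 1 and 5 in UUO. Both AC libraries, at 29.2 and 94.2 CPM, lay below all controls (208 to 455 CPM), while UUO replicate 1, at 279 CPM, lay among them. The log2 fold change in AC was -2.35 (SE 1.09, unadjusted p = 0.0465, adjusted p = 0.349). In UUO it was -1.30 (SE 0.86, adjusted p = 0.509). Without AC replicate 1 the AC value was -3.44, and without AC replicate 2 it was -1.82. The UUO value was -2.31 without UUO replicate 1 and -0.80 without UUO replicate 2.

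Over its 6 loops Dync2h1 had 32, 33 and 39 counts in control, 15 and 15 in AC, and 34, 6 and 21 in UUO. The 2 AC libraries were alike and below all controls, while UUO ranged widely. The host sum had log2 fold changes of -0.97 (SE 0.56, adjusted p = 0.427) in AC and -0.68 (SE 0.48, adjusted p = 0.475) in UUO. Among its untested loops, mmu_circ_0015837 had 6 and 2 counts in AC and 0 in all other libraries. Counts in AC alone were found for 5.43% of all listed circRNAs, and makeup was not tested. Cytoplasmic dynein-1, the motor towards the cell centre, was represented by Dync1h1, its heavy chain, and Dync1li1, a light intermediate chain. Dync1h1 had 4, 17 and 12 counts in control, 8 and 8 in AC, and 15, 4 and 5 in UUO, with log2 fold changes of the host sum of -0.27 (SE 0.76) and -0.14 (SE 0.85) in UUO and AC. Those of Dync1li1 were -0.18 (SE 0.96) and 0.26 (SE 1.05). The axonemal dyneins Dnahc2 and Dnahc11, of motile cilia, had 2 counts each, and of 7 multiciliated cell markers only Hydin was listed.

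Of 4 centrosome host sums and 5 centrosome circRNAs tested, 0 passed in any comparison. Of all host sums 6.32% passed in UUO against control, 3.82% in AC against control and 0.0831% in UUO against AC. For circRNAs these shares were 4.35%, 3.33% and 0%. With so few tested, 0 calls says little about centrosome hosts. Cep192, which recruits the proteins that build spindle poles, had 3, 9 and 5 counts of mmu_circ_0007472 in control, 6 and 10 in AC, and 7, 9 and 19 in UUO. In CPM the UUO libraries, at 178 to 399, lay just above the controls, at 79.8 to 170. The log2 fold change was 1.13 (SE 0.77) and did not pass (adjusted p = 0.517). Cep63, of centriole duplication, had 9, 40 and 18 counts in control, 27 and 33 in AC, and 38, 14 and 43 in UUO. Its log2 fold changes were 0.65 (SE 0.47) in UUO and 0.77 (SE 0.52) in AC.

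Cspp1 encodes a spindle pole and ciliary protein linked to Joubert syndrome. Its loop mmu_circ_0008039 had 22, 55 and 43 counts in control, 49 and 27 in AC, and 17, 23 and 31 in UUO. All UUO libraries, at 431 to 651 CPM, lay below both AC libraries (788 and 1154 CPM), and overlapped with control replicate 1. UUO against AC gave a log2 fold change of -0.84 (SE 0.39, unadjusted p = 0.0454, adjusted p = 0.857). Against control the values were -0.64 (SE 0.35, adjusted p = 0.415) in UUO and 0.21 (SE 0.38, adjusted p = 0.862) in AC.

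Cep350, a large protein that anchors microtubules at the centrosome, had 2 tested loops. The main loop mmu_circ_0000094 had 57, 32 and 62 counts in control, 48 and 40 in AC, and 57, 46 and 71 in UUO, with log2 fold changes of 0.25 (SE 0.33) in UUO and 0.032 (SE 0.37) in AC. The loop mmu_circ_0000095 had 20, 23 and 15 counts in control, 7 and 7 in AC, and 17, 14 and 16 in UUO. Both AC libraries lay below all other libraries. The log2 fold change of mmu_circ_0000095 in AC was -1.19 (SE 0.57, unadjusted p = 0.0525, adjusted p = 0.359). Of the remaining centrosome hosts Pcnt, pericentrin, had 1 to 10 counts a library, Cep97 1 to 7 and Cep250 0 to 9. Alms1, the gene of Alström syndrome, had 0 to 5, the satellite scaffold Pcm1 had 1 to 10 over 6 loops, and Cep164 had 1 count in all.

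**Figure D3:**
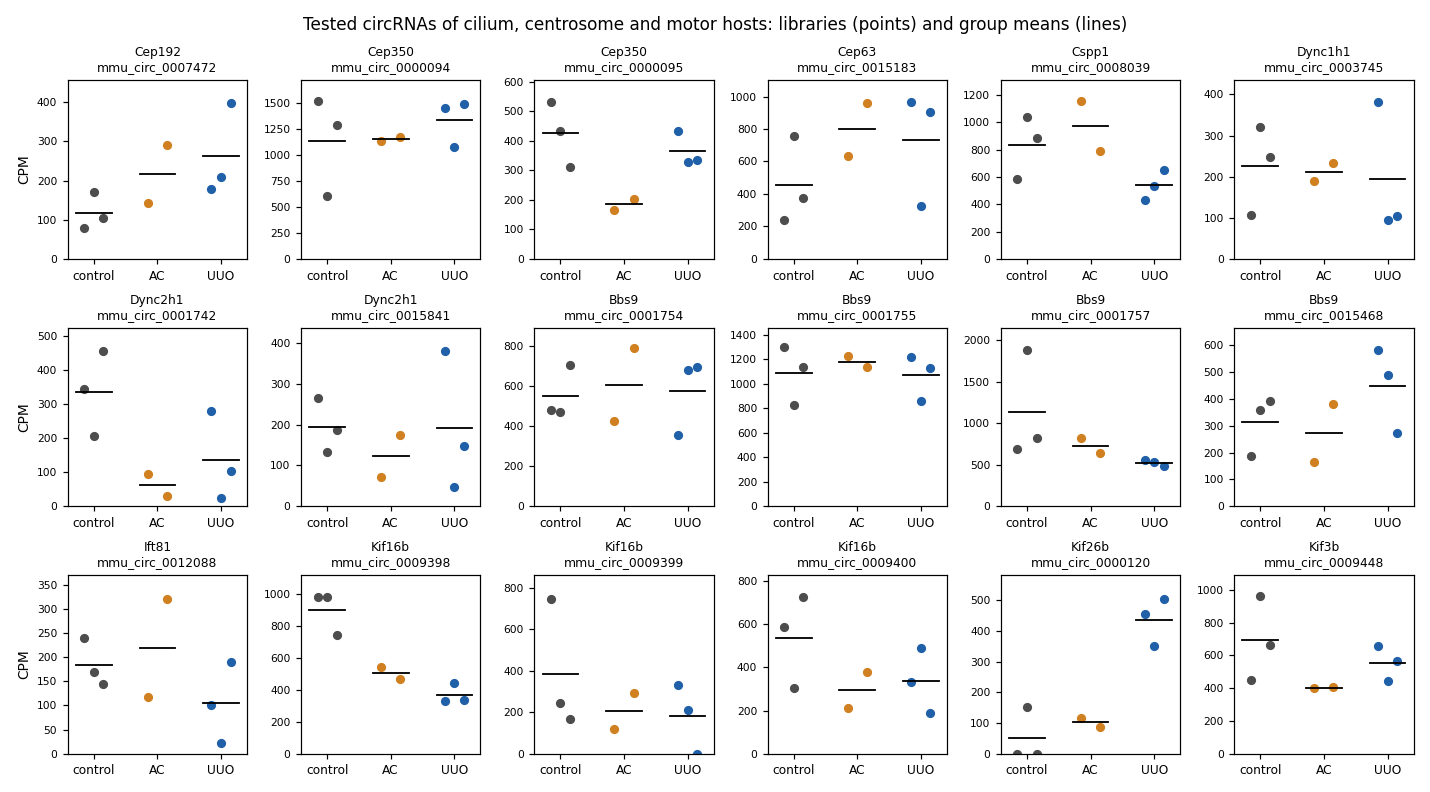
CPM in every library (points) and group means (lines) for the 18 tested circRNAs, 1 panel each with its own axis from 0. Only the panels of Cep192, Kif26b, Bbs9 (mmu_circ_0001757) and Kif16b (mmu_circ_0009398) show no overlap between UUO and control.

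The cystic kidney and cilium disease genes Pkd1, Nphp4 and Ahi1 gave too few circRNA counts to test. Nphp4 and Ahi1 had 6 and 5 counts in all. Pkd1, with 32, lay above the median total of 14 over all listed circRNAs. Pkd1 had 0, 0 and 7 counts in control, 7 and 3 in AC, and 7, 8 and 0 in UUO. Nphp4 had 5 counts in UUO replicate 1 and 1 in UUO replicate 3, and Ahi1 had 4 in AC replicate 2 and 1 in control replicate 3. No comparison can be drawn from counts this low.

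Over all members, the low-count filter left 18 circRNAs of 11 hosts and 13 host sums. The 61 circRNAs not tested had at most 53 counts in all and a median of 8. The lowest tested were Ift81 with 55 and Dync2h1 mmu_circ_0015841 with 59 counts, and the highest not tested were Kif2a mmu_circ_0004436 with 53 and Pcnt with 44. No member circRNA passed the adjusted threshold of 0.05 in the reported edgeR fit in any comparison. Some alternative edgeR settings, given at the end, called mmu_circ_0009398 or mmu_circ_0000120 in UUO against control. The share of all 1471 tested circRNAs that passed was 4.35% in UUO against control, 3.33% in AC against control and 0% in UUO against AC. At an unadjusted p under 0.05, 3 of 18 were found in UUO against control (15.5% of all tested), 1 in AC against control (14.1%) and 1 in UUO against AC (5.57%). DESeq2 called 2 in UUO against control, Kif16b mmu_circ_0009398 and Kif26b mmu_circ_0000120, and limma-voom the first alone; neither called one in the other comparisons. Of the 18, 4 had no overlap between UUO and control (24.3% of all tested), 4 none between AC and control (30.7%), and 6 none between UUO and AC (24.3%). Each of these shares rests on few circRNAs.

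In UUO against control 12 of 18 tested members lay below 0 on the log2 scale (median log2 fold change -0.23), beside 49.4% of all tested circRNAs and a median of 0.016. In AC against control 10 of 18 were negative with a median of -0.17, beside 50.6% and -0.015. These comparisons share their controls and are given side by side. By role in UUO, the medians were -0.67 for 5 kinesin, -0.25 for 3 dynein, -0.017 for 5 transport and BBSome, and 0.25 for 5 centrosome circRNAs, and several of these circRNAs share a host. The median spread of the 18 between control libraries, as a coefficient of variation, was 37.0%, against 38.0% over all tested circRNAs with control counts.

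**Figure D4:**
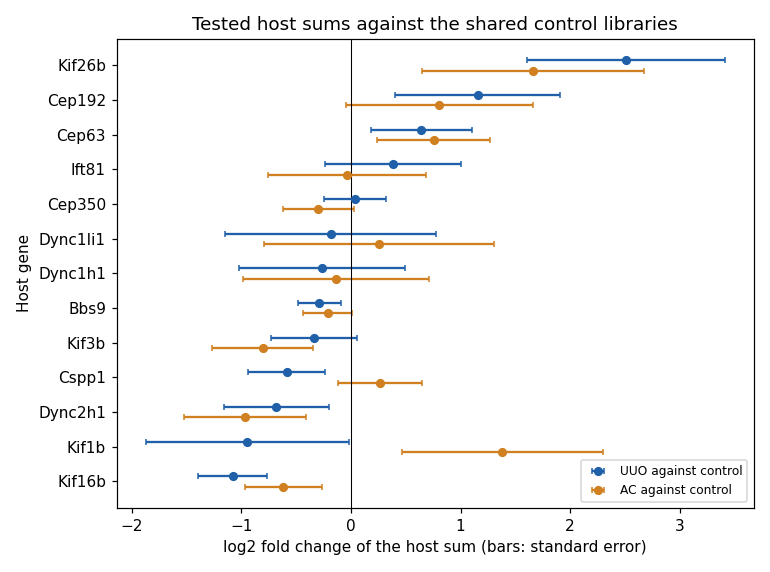
Log2 fold change of the 13 tested host sums in UUO (blue) and AC (orange) against the same 3 control libraries, with bars of 1 standard error. Kif16b is lowest in UUO at -1.08, the only call, and Kif26b highest at 2.51, with a wider error.

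Other genes of the same pathways, taken from lists of textbook members that the choice of hosts did not cover, gave further context. The lists were drawn up with earlier results of these data known, so the calls within them are a description and no support. Of 66 other cilium genes 24 had a listed circRNA, and 9 circRNAs of 5 hosts were tested, several of them loops of Glis3. Of these circRNAs 2 passed as higher in UUO and 2 in AC, and 0 as lower. Of all tested circRNAs 2.86% passed as higher and 1.5% as lower in UUO, and 1.9% and 1.43% in AC. They were the Dcdc2a circRNA and mmu_circ_0000943 of Glis3, a transcription factor that localises to cilia and whose loss gives cystic kidneys. This Glis3 loop had 107, 119 and 147 counts in control, 247 and 192 in AC, and 216, 194 and 232 in UUO. In CPM the 5 injured libraries lay above the 3 controls. It was 1.83-fold higher in UUO (log2 SE 0.19, adjusted p = 0.0178) and 2.11-fold higher in AC (log2 SE 0.21, adjusted p = 0.0114). The tested Glis3 loop of highest control CPM, mmu_circ_0000942, had log2 fold changes of -0.0057 (SE 0.20) in UUO and -0.16 (SE 0.22) in AC. The other tested Glis3 loops were positive in both models and did not pass. The Glis3 host sum was 1.41-fold higher in UUO (adjusted p = 0.0116), a call lost in 5 of 16 alternative fits. In AC it was 1.32-fold higher (adjusted p = 0.104). The mmu_circ_0000943 call was lost without any 1 UUO library in UUO (adjusted p = 0.0661 to 0.0768), without either AC library in AC (adjusted p = 0.103 and 0.0709), with only the control and AC libraries in AC (adjusted p = 0.0623), and in both under scaling by the constant between the deposited tables (adjusted p = 0.217 and 0.177).

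Of 53 other centrosome genes 26 were listed, and 0 of their 10 tested circRNAs passed in any comparison. Of 40 other motor genes 9 were listed, and 0 of 7 tested circRNAs passed. Of all tested circRNAs 4.35% passed in UUO against control, 3.33% in AC against control and 0% in UUO against AC. With so few tested, 0 calls says little about either list. Summed per host, Klc1, a kinesin-1 light chain, had 7, 21 and 13 counts in control, 14 and 37 in AC, and 24, 46 and 43 in UUO. The Klc1 sum was 2.95-fold higher in UUO (log2 SE 0.46, edgeR quasi-likelihood adjusted p = 0.0496), a call lost in 9 of 16 alternative fits. Of 5 motor host sums tested in UUO, 2 were positive and 3 negative, and Klc1 was the only call, beside 6.32% of all host sums. The Ndel1 sum went the other way without passing. It was 3.18-fold lower in UUO (log2 SE 0.53, adjusted p = 0.0658) and 3.46-fold lower in AC (log2 SE 0.63, adjusted p = 0.140).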

How the data were processed

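Kidney RNA of 8 libraries was measured, with 3 control, 2 AC and 3 UUO libraries. The first table holds counts per circRNA that the authors deposited without normalization. The second holds a signal that, as its values show, the authors made by dividing each count by 1 constant per library (8718 to 11941); it served only for an alternative scaling. The build mm9 and the tools StringTie and HISAT2 are named, with no role, per the submitters' processing notes, and no source used here names the caller of circular junctions. Counts went into edgeR 4.0.16 (R 4.3.3) for its quasi-likelihood test over all 8 libraries in 1 fit, TMM factors, its default filter (count of 10, total of 15) and Benjamini-Hochberg adjustment over all 1471 circRNAs or 1203 host sums, threshold 0.05. Host sums add all circRNAs of 1 host; 32 rows without a host were kept as they were. CPM of single circRNAs and of host sums use the filtered totals of their own fit. Each standard error is the size of the log2 fold change divided by the root of its F statistic.

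The members, roles and lists were chosen with earlier results of these data known. CircRNAs named with all values were those with an unadjusted p under 0.05 in any comparison, the 5 of highest mean control CPM, and hosts with 3 or more tested circRNAs; others were named after their values were seen. Motif patterns (12) were searched in the promoters, and the 2 printed were picked after all matches were seen. On simulated counts with UUO and AC changed alike, 10% of 2-fold and 51.8% of 4-fold circRNA changes were recovered in UUO against control (1314 tested). For host sums these were 22% and 63.8% (1102 tested). Replicates differed by more than counting noise (chi-square per degree of freedom 3.00 to 4.72), so none was counted as a duplicate. Alternatives were RLE factors, the deposited constant as library size, DESeq2 1.42.0, limma-voom (limma 3.58.1), no filter, a filter count of 20, only the 2 groups compared, a replicate block and each library left out. Precision is limited by low counts, and the bounds given for Kif26b cover counting error only and leave out control replicate 2. The values of 1 member host are not reported here.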

Additional observations from a re-analysis of the deposited data

How the results depend on the processing

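The number of circRNAs of these hosts called in UUO against control was 0 in the reported fit. It was 1 with RLE factors, 1 with the deposited constant as library size, 2 in DESeq2, 1 in limma-voom, 1 under the stricter filter and 1 with only the 2 groups compared, and 0 to 1 with 1 library left out. Called host sums went from 1 to 2 without a filter, 0 with the replicate block and 0 to 2 with 1 library left out, and in AC against control from 0 to a range of 0 to 1 with 1 library left out (Kif26b, without control replicate 2). The causes were not tested. In UUO against AC, and for circRNAs in AC against control, 0 were called in every alternative run.

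Over all features the calls moved more. In UUO against control circRNA calls went from 64 to 103 in DESeq2, 37 with the constant, 12 with the block and 10 to 75 with 1 library left out, and host sum calls from 76 to 49 with the constant and 34 to 91 with 1 library left out. In AC against control circRNA calls went from 49 to 29 with the constant, 5 with the block, 14 with 2 groups alone and 11 to 38 with 1 library left out, and host sum calls from 46 to 18 with the block, 25 with 2 groups alone and 21 to 53 with 1 library left out. In UUO against AC the 0 circRNA calls became 2 in DESeq2, 4 with no filter and 1 with 2 groups alone. The constant moved the median log2 fold change of all circRNAs to -0.26 in UUO and -0.34 in AC against control.

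The Kif16b host sum was called in 10 of 16 alternatives, with adjusted p from 0.0147 to 0.222, and mmu_circ_0009398 in 6 of 16, from 0.0199 to 0.199. No pairing by replicate number was seen: same-numbered libraries had correlations of their deviations from group means between -0.113 and 0.0417. No UUO library correlated best with the control library of its own number. With 2 or 3 libraries per group these correlations cannot show whether the libraries were paired. With the replicate block the adjusted p of the Kif16b host sum was 0.0715, and those of Glis3 mmu_circ_0000943 were 0.0668 in UUO and 0.0601 in AC.

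Several log2 fold changes of these hosts, none of them past the threshold in the reported fit, changed sign in an alternative. The reported value stands in brackets. In UUO against control the log2 fold changes included Cep350 mmu_circ_0000094 (0.25) -0.072 to 0.51 with 1 library left out, Dync1h1 mmu_circ_0003745 (-0.25) -1.16 to 0.082 with 1 library left out, Bbs9 mmu_circ_0001754 (0.065) -0.11 to 0.32 with 1 library left out and -0.20 with the constant. Others there were Bbs9 mmu_circ_0001755 (-0.017) -0.20 to 0.13 with 1 library left out and 0.0095 in limma-voom and 0.011 with 2 groups alone, Dync2h1 mmu_circ_0015841 (-0.023) -0.25 to 0.44 with 1 library left out, Cep350 host sum (0.04) -0.21 to 0.29 with 1 library left out and -0.17 with the constant. Others there were Dync1h1 host sum (-0.27) -1.22 to 0.063 with 1 library left out, Dync1li1 host sum (-0.18) -0.67 to 0.051 with 1 library left out and 0.45 in limma-voom and 0.16 with the block, Ift81 host sum (0.38) -0.19 to 0.79 with 1 library left out. In AC against control the log2 fold changes included Cspp1 mmu_circ_0008039 (0.21) -0.14 to 0.43 with 1 library left out and -0.15 with the constant, Cep350 mmu_circ_0000094 (0.032) -0.28 to 0.29 with 1 library left out and -0.23 with the constant and -0.017 with no filter, Dync1h1 mmu_circ_0003745 (-0.11) -0.43 to 0.22 with 1 library left out. Others there were Ift81 mmu_circ_0012088 (0.24) -0.65 to 0.75 with 1 library left out and -0.097 with the constant, Bbs9 mmu_circ_0001754 (0.12) -0.40 to 0.47 with 1 library left out and -0.22 with the constant, Bbs9 mmu_circ_0015468 (-0.23) -0.95 to 0.21 with 1 library left out. Others there were Bbs9 mmu_circ_0001755 (0.12) -0.039 to 0.27 with 1 library left out and -0.17 with the constant, Cspp1 host sum (0.26) -0.0035 to 0.43 with 1 library left out and -0.078 with the constant, Dync1h1 host sum (-0.14) -0.48 to 0.18 with 1 library left out. Others there were Dync1li1 host sum (0.26) -0.92 to 0.85 with 1 library left out, Ift81 host sum (-0.035) -0.47 to 0.38 with 1 library left out and 0.068 in limma-voom. In UUO against AC the log2 fold changes included Dync1h1 mmu_circ_0003745 (-0.14) -1.06 to 0.18 with 1 library left out, Cep192 mmu_circ_0007472 (0.29) -0.14 to 0.90 with 1 library left out, Kif16b mmu_circ_0009399 (-0.19) -0.96 to 0.59 with 1 library left out and 0.027 with the block. Others there were Kif16b mmu_circ_0009400 (0.19) -0.19 to 0.67 with 1 library left out, Cep63 mmu_circ_0015183 (-0.12) -0.39 to 0.23 with 1 library left out, Bbs9 mmu_circ_0001754 (-0.055) -0.45 to 0.46 with 1 library left out and 0.018 with the constant. Others there were Cep192 host sum (0.35) -0.096 to 0.95 with 1 library left out, Cep63 host sum (-0.11) -0.38 to 0.23 with 1 library left out, Dync1h1 host sum (-0.13) -1.06 to 0.19 with 1 library left out. Others there were Dync1li1 host sum (-0.44) -1.03 to 0.73 with 1 library left out and 0.059 with the block, Dync2h1 host sum (0.28) -0.42 to 0.71 with 1 library left out and -0.053 in limma-voom, Ift81 host sum (0.42) -0.14 to 0.85 with 1 library left out. No direction should be read from these. With 1 library left out, 20 of the 54 fold changes of tested circRNAs of these hosts (18 in 3 comparisons) and 13 of the 39 of their host sums moved by over 1.5-fold in at least 1 fit. Low counts limit what can be seen: 61 of 79 circRNAs could not be tested.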
